A study of Mus musculus with 17 samples.

Results

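Postsynaptic scaffold and plasticity signalling genes were described as a list of 40 genes, chosen by name and matched by symbol to the 38355 Ensembl identifiers counted in every library. All 40 matched and all 40 passed the filter on low counts in both comparisons, so no gene was lost. The libraries were made from polyA RNA of hand-dissected hippocampus of untreated wild type C57BL/6J mice, and the groups differed in age. Mice of 3 months (3M, n = 5) were compared with mice of 24 months (24M, 6 libraries counted as 5 samples) in single-end libraries, and in a separate experiment mice of 3 months (n = 3) with mice of 29 months (29M, n = 3) in paired-end libraries. Reads counted on genes numbered 19144461 to 28438296 per library at 3M and 9213474 to 19756411 at 24M, and 10977976 to 15054972 at 3M and 10991389 to 13563541 at 29M in the paired-end experiment. The labels do not say which libraries came from which animal or preparation day, so p-values measure the spread between these samples.

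Excitatory synapses of the hippocampus sit on dendritic spines, where a dense protein lattice beneath the membrane holds glutamate receptors opposite the presynaptic terminal. In that lattice, MAGUK proteins bind receptors, SAPAP proteins link MAGUKs to Shanks, and Shanks link to Homers and to actin. Calcium that enters through NMDA receptors binds calmodulin, and calmodulin switches on CaMKII, calcineurin and calcium-sensitive adenylyl cyclases, which together strengthen or weaken the synapse. Levels are given as CPM, counts scaled to a common library total by TMM, which corrects for library size and composition. Changes are log2 fold changes of aged over 3M with their standard errors (SE), from the quasi-likelihood test of edgeR, and p-values were adjusted by Benjamini-Hochberg over all genes tested.

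Several libraries stood apart before any gene was tested. 24M replicates 1 and 4 differed by less than sampling noise, with a mean squared difference of 0.406 of the counting variance where the next closest of all library pairs gave 1.23, and their rounded mean was counted as 1 sample. 3M single-end replicate 4 held 739.2 CPM summed over 11 striatum markers, where the other 3M single-end libraries held 271.0, 271.3, 237.0 and 305.0 CPM and the 24M samples 254.0 to 287.2 CPM. The most abundant of these markers was Ppp1r1b, the dopamine signalling protein DARPP-32, and none of the 11 was at 0 in any library. Over 13 activity-induced genes, led by Egr1, the same library held 1039 CPM, 3M single-end replicates 1, 2, 3 and 5 held 385.9, 378.2, 576.0 and 643.1 CPM, and the 24M samples 292.4 to 344.1 CPM. The sum over 8 genes listed as neocortex markers was 315.5 to 461.0 CPM at 3M and 243.3 to 280.8 CPM at 24M, without overlap. It was led by Stx1a, a presynaptic vesicle release gene that is not particular to neocortex, so the sum does not measure neocortical tissue alone. In the paired-end experiment, the striatum, activity-induced and neocortex sums of the 3M and 29M samples overlapped. The part of these differences in the results below was not tested, and calls are given with and without the libraries concerned.

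Base composition also differed between the single-end libraries. Relative to the mean of the single-end samples, the median of genes with 52.9% GC or more in their transcripts minus that of genes with 46.5% or less was 0.290, 0.073, 0.153, 0.088 and -0.101 on the log2 scale in 3M replicates 1 to 5. At 24M it was -0.121 in the combined replicates 1 and 4, -0.141, -0.236 and 0.037 in replicates 2, 3 and 5, and -0.049 in replicate 6. Thus 3M replicate 1 and 24M replicate 3 lay farthest apart, and 3M replicate 5 lay among the 24M samples. In the paired-end libraries the same measure stayed between -0.056 and 0.059.

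**Figure D1:**
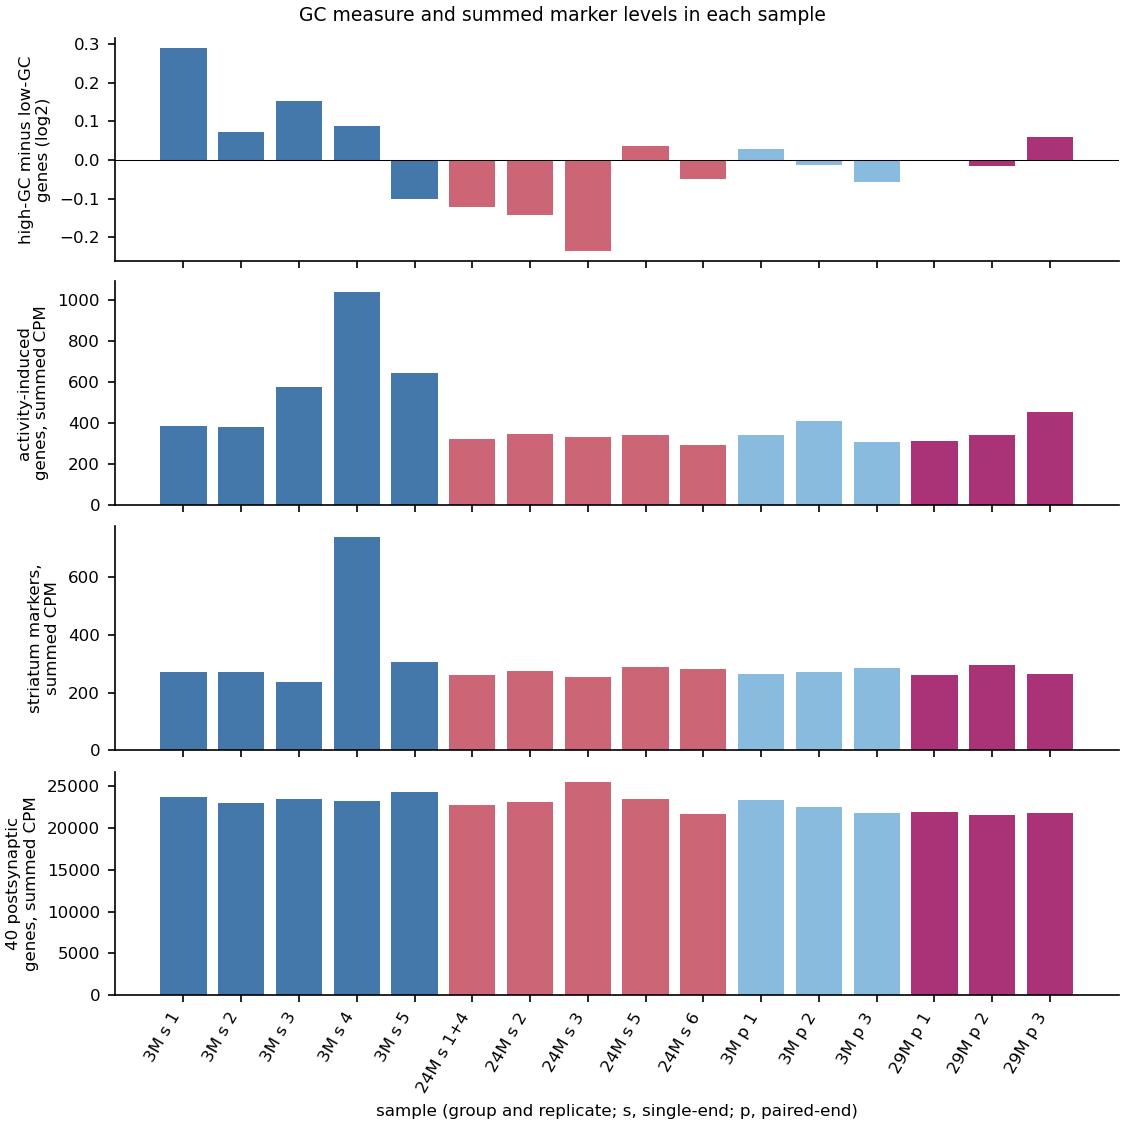
Bars give, for each sample on the horizontal axis, the difference between high-GC and low-GC genes (log2), the summed CPM of 13 activity-induced genes, of 11 striatum markers and of the 40 postsynaptic genes. 3M single-end replicate 4 stands out at 1039 CPM for activity-induced genes and 739.2 CPM for striatum markers, while the sum over the 40 genes stayed between 21550 and 25400 CPM in all samples.

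Markers of the labelled tissue were present. All 10 general neuron markers were counted in every library, led by Snap25, the synaptic vesicle fusion protein, at 2304 CPM at 3M in the single-end and 2332 CPM in the paired-end libraries. Dentate granule cell markers (7 genes, led by Pitpnm2) summed to 751 ± 61.7 CPM at 3M and 785.7 ± 52.0 CPM at 24M (SD, n = 5 each), and CA1 markers (6 genes, led by Mpped1) to 857.8 ± 84.3 and 780.5 ± 19.2 CPM. Of the neuron markers, 0 of 10 passed an adjusted p of 0.05 at 24M and 1 of 10 at 29M, where Stmn2, a regulator of axonal microtubules, was lower (-0.17, adjusted p = 0.0354). In whole tissue, fewer cells of a type and less RNA per cell cannot be told apart.

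Together the 40 genes held 23490 ± 487 CPM at 3M and 23250 ± 1375 CPM at 24M (SD, n = 5 each), and 22477 ± 806 CPM at 3M and 21717 ± 176 CPM at 29M (SD, n = 3 each). The groups overlapped at 24M, and at 29M the highest aged sample (21900 CPM) lay above the lowest 3M sample (21700 CPM). No test was made on these sums.

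The question of the age comparison is which of these genes differed in level between young and old hippocampus. With the study's thresholds, which are an adjusted p up to 0.05 together with a log2 fold change of 0.5 or more in size, 0 of the 40 genes were called at 24M and 0 at 29M. Among all 15683 genes tested at 24M, 1.34% were called higher and 0.638% lower by that rule, and among 15097 at 29M 1.34% and 0.113%. At an unadjusted p under 0.05, 18 of the 40 genes passed at 24M (45%, against 26.1% of all genes) and 7 at 29M (17.5%, against 17.3%). DESeq2 also called 0 of them with the study's thresholds at both ages. Without 3M single-end replicate 5, or without 24M replicate 6, 1 of the 40 genes was called at 24M, Adcy8, where 174 and 85 of all genes were lower by this rule, as against 100 with all samples. Adcy8 was also the gene called with 24M replicates 1 and 4 both left out (-0.51), where 51 of all genes were lower.

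Without a threshold on the fold change, 6 of the 40 genes (15%) were lower at 24M and 1 (2.5%) was higher, where 2.37% of all genes were lower and 3.21% higher. The lower genes were Cacng3, Dlgap3, Dlg4, Adcy8, Shank1 and Nrgn, with log2 fold changes of -0.47 to -0.20, and the higher gene was Ppp3cb (0.33). At 29M, 1 of 40 (2.5%) was lower, Dlg2 (-0.16), and 0 were higher, where 0.662% of all genes were lower and 2.32% higher. No gene of the list passed at both ages. The median log2 fold change over the 40 genes was -0.060 at 24M and -0.043 at 29M, where the medians of all genes were -0.0032 and -0.0021. Values lay below 0 for 25 of 40 genes at 24M (62.5%, against 50.8% of all genes) and for 29 of 40 at 29M (72.5%, against 50.6%). With offsets for GC content and length, described below, the 24M median was -0.003 and 20 of 40 values lay above 0. All 5 samples of 24M lay below all 3M samples for 6 genes (15%, against 3.42% of all genes) and above for 0 (against 3.15%). At 29M the corresponding numbers were 10 genes below (25%, against 10.5%) and 1 above (2.5%, against 11.9%). The 29M changes were small, since 82.5% of the 40 genes had an absolute log2 fold change under 0.1, as against 55.3% of all genes tested. At 24M this share was 42.5%, against 42.1% of all genes. The 40 genes and all genes tested were not matched for expression level in these shares.

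**Figure D2:**
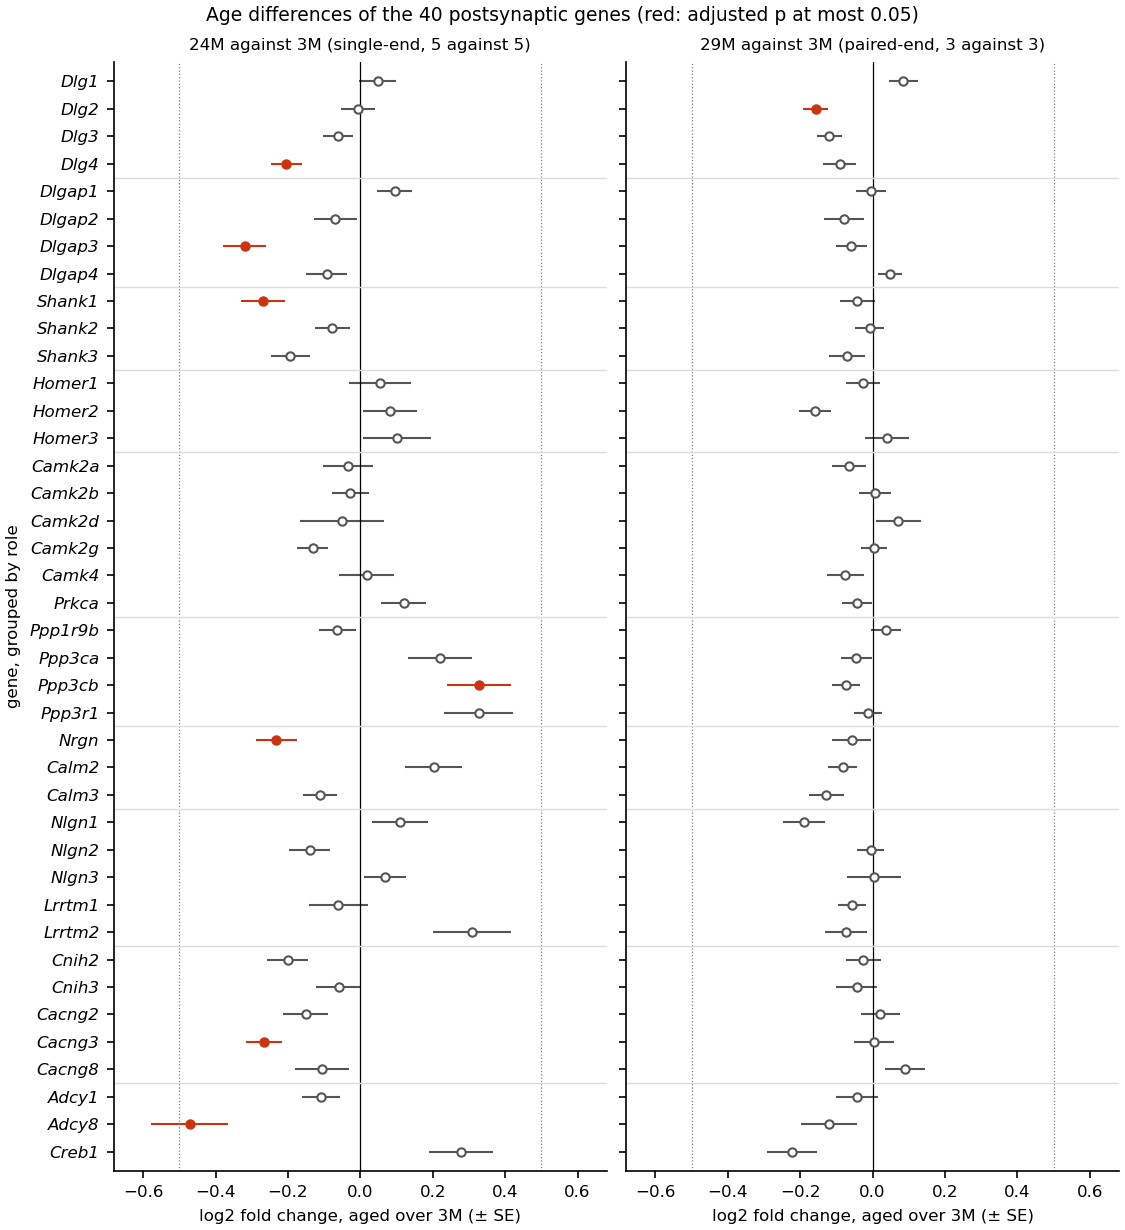
Points are log2 fold changes of the 40 genes with their SE (bars) at 24M (left) and 29M (right), grouped by role, with genes at an adjusted p of at most 0.05 in red and dotted lines at an absolute value of 0.5. The 24M values spread from -0.47 to 0.33 and the 29M values from -0.22 to 0.09.

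Among the MAGUK scaffolds, Dlg4 was lower at 24M and Dlg2 at 29M, and Dlg1 and Dlg3 passed the test at neither age. Dlg4 encodes PSD-95, the most studied scaffold of the excitatory postsynaptic density, and lies on chromosome 11 at positions 70016942 to 70047522 of GRCm38. Its levels were 892.2, 852.4, 881.3, 860.4 and 803.2 CPM at 3M and 704.8, 732.1, 762.3, 777.7 and 745.7 CPM at 24M. All 24M samples lay below all 3M samples, the nearest being 777.7 against 803.2 CPM. The log2 fold change was -0.20 (SE 0.044, adjusted p = 0.0221, edgeR). The call was lost without 3M replicate 1, without 24M replicate 2, or with 24M replicates 1 and 4 both left out (-0.185). At 29M, Dlg4 held 728.0, 708.2 and 715.9 CPM against 809.4, 753.7 and 729.2 CPM at 3M, again without overlap, and the difference (-0.09, SE 0.045) gave an adjusted p of 0.317.

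Dlg2, which encodes PSD-93, a close relative of PSD-95, held 239.8, 240.2 and 232.7 CPM at 29M against 266.7, 257.8 and 270.5 CPM at 3M. The 29M samples lay close together and below every 3M sample (log2 fold change -0.16, SE 0.035, adjusted p = 0.0272, edgeR). With 3 samples a group, this call held in 1 of 6 fits that each left out 1 library, where the adjusted p ranged from 0.0305 to 0.13 and the log2 fold change from -0.18 to -0.14. At 24M Dlg2 held 281.7 ± 11.6 CPM against 283.1 ± 14.0 CPM (SD, n = 5 each), a log2 fold change of -0.01 (adjusted p = 0.942). Dlg3, the gene of SAP102, held 250.1, 247.8 and 252.6 CPM at 29M against 279.7, 272.2 and 263.5 CPM at 3M, which gave -0.12 (adjusted p = 0.0887). Dlg1, the gene of SAP97, had values of 0.05 at 24M and 0.09 at 29M, opposite in sign to the other MAGUK genes, but its 24M value was -0.045 with offsets for GC content and length.

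Of the SAPAP genes, which encode the adaptors between MAGUKs and Shanks, Dlgap3 passed the test, at 24M. Dlgap3 encodes SAPAP3, known for excessive grooming in mice that lack it. It held 362.1, 344.7, 352.7, 360.4 and 306.0 CPM at 3M and 261.3, 268.5, 259.7, 306.2 and 287.6 CPM at 24M. The groups just overlapped, since 3M replicate 5 (306.0 CPM) lay level with 24M replicate 5 (306.2 CPM). The log2 fold change was -0.32 (SE 0.060, adjusted p = 0.0134, edgeR), and the call held in all 11 fits that each left out 1 library, with values of -0.37 to -0.30. With offsets for GC content and length the value was -0.16 (adjusted p = 0.0183, edgeR). At 29M Dlgap3 held 280.9 ± 8.0 CPM against 292.8 ± 16.0 CPM (SD, n = 3 each), a log2 fold change of -0.06 (adjusted p = 0.518). Dlgap2 had the largest absolute value of the SAPAP genes at 29M, -0.08 (adjusted p = 0.501), with 74.2, 69.3 and 68.5 CPM against 79.1, 71.6 and 73.5 CPM at 3M, which overlapped, and -0.07 at 24M (adjusted p = 0.479), with 60.4 to 73.0 CPM against 65.0 to 73.3 CPM. Dlgap1 and Dlgap4 passed the test at neither age, with values between -0.09 and 0.09.

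All 3 Shank genes had negative values at both ages, and Shank1 passed the test at 24M. With offsets for GC content and length, the 24M values were -0.117 for Shank1, whose call was lost (adjusted p = 0.184), 0.007 for Shank2 and -0.043 for Shank3. Shanks are master scaffolds of the deep layer of the postsynaptic density, and loss of SHANK3 is a known cause of Phelan-McDermid syndrome. Shank1 held 632.4, 567.2, 591.9, 554.3 and 547.6 CPM at 3M and 439.5, 449.2, 527.8, 517.9 and 468.2 CPM at 24M. The groups did not overlap, and the log2 fold change was -0.27 (SE 0.061, adjusted p = 0.0272, edgeR). Without 3M replicate 1, 24M replicate 2 or 24M replicate 6 the call was lost, with an adjusted p of up to 0.0853, and it was lost with 24M replicates 1 and 4 both left out (-0.237). Shank3 held 257.7, 266.0, 284.4, 290.9 and 290.8 CPM at 24M, all below its lowest 3M value of 296.7 CPM, and its difference of -0.19 (SE 0.055) gave an adjusted p of 0.0542. At 29M the values were -0.04 for Shank1, -0.01 for Shank2 and -0.07 for Shank3, the smallest adjusted p being 0.518. The Homer genes, whose proteins tie Shanks to metabotropic glutamate receptors, passed the test at neither age. Homer3 had the largest value at 24M (0.10, adjusted p = 0.529), with 44.2, 36.7, 40.8, 32.7 and 31.0 CPM at 3M and 40.2, 36.5, 38.4, 45.0 and 38.7 CPM at 24M, which overlapped. With offsets for GC content and length it had 0.22 (adjusted p = 0.101), and Homer1 turned from 0.05 to -0.23 and was called. Homer2 had the largest at 29M (-0.16, adjusted p = 0.0764), where 115.6, 118.5 and 107.3 CPM lay below 128.9, 128.9 and 122.6 CPM at 3M. Homer3 overlaps the RNA helicase gene Ddx49 on the opposite strand, and as the library kit does not mark strand, reads of the overlap cannot be assigned.

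**Figure D3:**
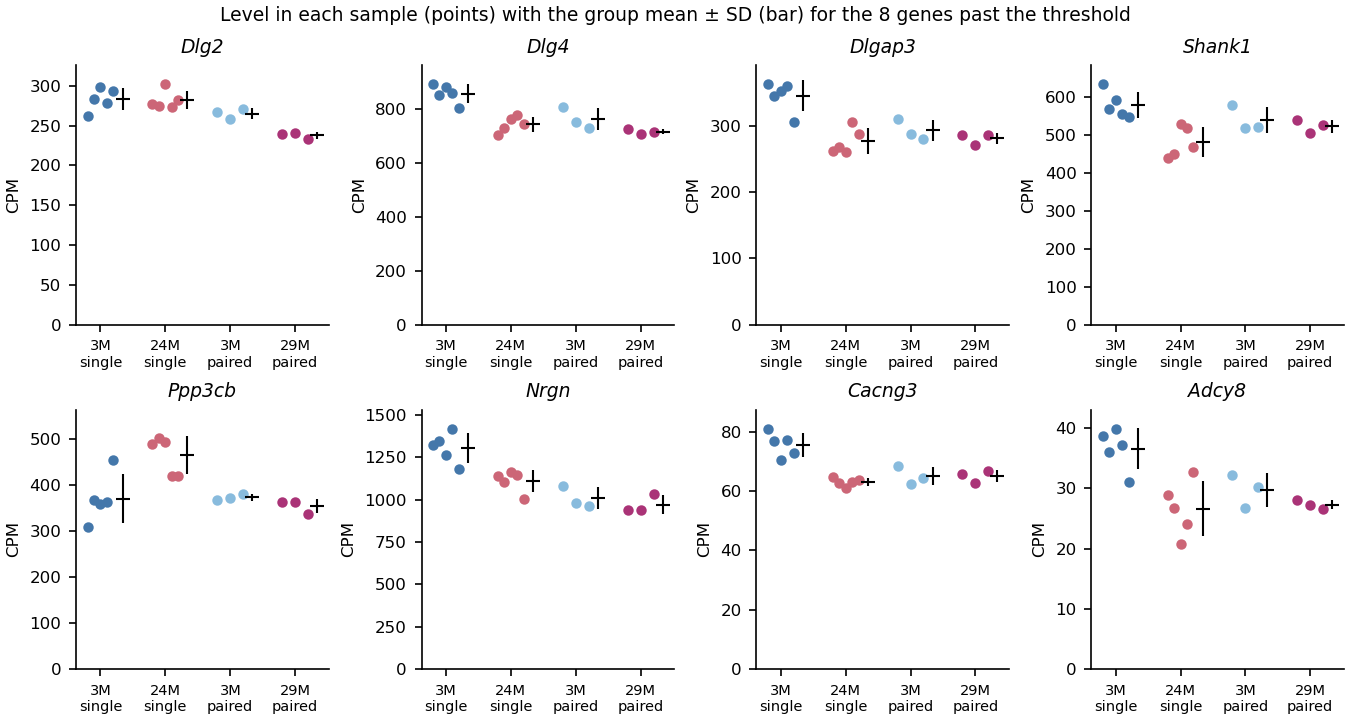
Points give the CPM in each sample for the 8 genes that passed an adjusted p of 0.05 at either age, with the group mean and SD beside them and every vertical axis starting at 0. Dlg4, Shank1, Nrgn and Cacng3 had 24M samples wholly below the 3M samples, while those of Dlgap3, Ppp3cb and Adcy8 overlapped. Dlg2, Dlg4 and Ppp3cb had 29M samples wholly below the 3M samples.

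None of the kinase genes passed the test of the main edgeR fit at either age. DESeq2 and a joint fit of all 4 groups called Camk2g lower at 24M. Camk2a and Camk2b encode the α and β subunits of CaMKII, the calcium-activated kinase needed for long-term potentiation. Camk2a held 5084, 4811, 4815, 4665 and 5019 CPM at 3M and 4386, 4642, 5592, 4996 and 4206 CPM at 24M, so that the 24M samples spread around the 3M samples on both sides. The log2 fold change was -0.03 (SE 0.068, adjusted p = 0.787), and at 29M it was -0.07 (SE 0.047, adjusted p = 0.518), with 4425, 4363 and 4347 CPM against 4798, 4619 and 4330 CPM. Camk2b had values of -0.03 and 0.01. Camk2g, a broadly expressed CaMKII subunit, held 197.9 to 218.3 CPM at 24M, all below its lowest 3M sample of 222.2 CPM, and its difference of -0.13 (SE 0.043) gave an adjusted p of 0.0801. Camk4, a nuclear kinase that acts on CREB, had the largest absolute value among the kinases at 29M (-0.08, adjusted p = 0.477), where 171.3, 165.6 and 174.8 CPM overlapped with 181.6, 164.9 and 193.2 CPM at 3M. Prkca, the gene of protein kinase C alpha, had 0.12 at 24M and -0.04 at 29M.

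The 3 calcineurin genes had positive values at 24M and negative values at 29M. Calcineurin is the calcium-activated phosphatase linked to long-term depression, with catalytic subunits from Ppp3ca and Ppp3cb and the regulatory subunit from Ppp3r1. Ppp3cb held 309.6, 367.4, 357.7, 363.7 and 454.3 CPM at 3M and 489.9, 502.7, 494.0, 420.2 and 418.6 CPM at 24M. 3M replicate 5 lay among the 24M samples, and the other 3M samples lay below all of them. The log2 fold change was 0.33 (SE 0.089, adjusted p = 0.0482, edgeR), and the call was lost in 8 of 11 fits that each left out 1 library. It held without 3M replicate 5, 24M replicate 4 or 24M replicate 5, and was lost with offsets for GC content and length (0.13, adjusted p = 0.101) or with 24M replicates 1 and 4 both left out (0.309). Ppp3r1 was low and high in the same samples, from 679.2 CPM in 3M replicate 1 to 1057 CPM in 3M replicate 5 and from 989.9 to 1195 CPM at 24M, and its difference of 0.33 (SE 0.096) gave an adjusted p of 0.0592. With the offsets it was 0.175 (adjusted p = 0.0956). Ppp3ca had 0.22 (adjusted p = 0.137). At 29M the values were -0.07 for Ppp3cb (adjusted p = 0.365), -0.01 for Ppp3r1 and -0.04 for Ppp3ca. The 29M samples of Ppp3cb and Ppp3ca lay below all 3M samples. Ppp3r1 overlaps Wdr92 on the same strand. Ppp1r9b, the gene of spinophilin, which targets protein phosphatase 1 to spines, had values of -0.06 and 0.04.

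Nrgn encodes neurogranin, a small neuronal protein that holds calmodulin at low calcium. It held 1322, 1345, 1264, 1420 and 1184 CPM at 3M and 1143, 1108, 1164, 1145 and 1003 CPM at 24M. The groups did not overlap, by 1164 against 1184 CPM, and the log2 fold change was -0.23 (SE 0.056, adjusted p = 0.0340, edgeR). The call was lost in 5 of 11 fits that each left out 1 library, with an adjusted p of up to 0.0884, with offsets for GC content and length (-0.12, adjusted p = 0.276), and with 24M replicates 1 and 4 both left out (-0.241). At 29M it held 941.3, 937.2 and 1035 CPM against 1084, 982.4 and 965.3 CPM, with overlap (-0.06, adjusted p = 0.640). The calmodulin genes Calm2 and Calm3, which encode the same protein sequence, had 0.20 and -0.11 at 24M and -0.08 and -0.13 at 29M. With the offsets, the 24M values were 0.091 (adjusted p = 0.359) and -0.012 (adjusted p = 0.924). At 29M Calm3 held 1691, 1666 and 1718 CPM, below its 3M values of 1968, 1842 and 1733 CPM, with an adjusted p of 0.205. Calm2 was the gene that differed most between library types, at 848.8 CPM in 3M single-end and 1462 CPM in 3M paired-end libraries, a ratio of 1.72 where the next highest was 1.13 and the median 0.938. Reads that mapped to several places, which were not counted, made up 22.85% to 26.62% of the single-end and 10.79% to 12.75% of the paired-end libraries.

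The adhesion genes passed the test at neither age. Neuroligins, from Nlgn1 to Nlgn3, and LRRTM proteins sit in the postsynaptic membrane and bind presynaptic neurexins, with neuroligin 2 known from inhibitory synapses. Lrrtm2 had the largest value at 24M (0.31, SE 0.11, adjusted p = 0.0963), with 60.6, 68.1, 69.8, 70.8 and 93.7 CPM at 3M and 98.2, 99.3, 94.6, 77.0 and 79.7 CPM at 24M. As for Ppp3cb, 3M replicate 5 lay among the 24M samples. With offsets for GC content and length the value of Lrrtm2 was 0.074 (adjusted p = 0.497). Nlgn1 had the largest value at 29M, with 80.7, 83.8 and 71.4 CPM below 91.6, 86.2 and 91.1 CPM at 3M (-0.19, SE 0.058, adjusted p = 0.104). At 24M it had 0.11 (adjusted p = 0.391), with 84.7 to 107.6 CPM against 80.5 to 102.7 CPM, and -0.097 with offsets for GC content and length. Lrrtm1 and Lrrtm2 each lie within an intron of an α-catenin gene on the opposite strand, Ctnna2 and Ctnna1, and reads from unspliced catenin transcripts cannot be told apart from theirs without strand.

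All 5 auxiliary subunits of the AMPA receptor had negative values at 24M, and Cacng3 passed the test. With offsets for GC content and length, Cacng8 turned to 0.065 and Cnih3 had -0.009. Cacng2, Cacng3 and Cacng8 encode TARPs, transmembrane proteins that bring AMPA receptors to PSD-95 and slow their closing, and Cnih2 and Cnih3 encode cornichons with a similar part in gating and transport. Cacng3 (TARP γ-3) held 81.1, 76.8, 70.6, 77.1 and 73.0 CPM at 3M and 64.7, 62.6, 61.0, 63.0 and 63.6 CPM at 24M. The 24M samples lay between 61.0 and 64.7 CPM, below every 3M sample. The log2 fold change was -0.27 (SE 0.049, adjusted p = 0.0121, edgeR), and the call held in all 11 fits that each left out 1 library, with values of -0.29 to -0.24. At 29M the levels were 65.9, 62.8 and 66.8 CPM against 68.5, 62.4 and 64.3 CPM, a value of 0.00 (adjusted p = 0.982). Cnih2 had -0.20 at 24M (SE 0.056, adjusted p = 0.0527; -0.052 with the offsets, adjusted p = 0.575), and Cacng2, the gene of stargazin, -0.15 (adjusted p = 0.145). Cacng8 had the largest value at 29M, 0.09 (adjusted p = 0.431), with 129.3, 125.9 and 141.1 CPM overlapping 134.3, 121.7 and 116.4 CPM at 3M.

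Promoters are shown for 3 called genes that have a single start in RefSeq (GRCm38.p6), namely Ppp3cb, the higher gene, and Nrgn and Dlgap3 among the lower ones. Each runs 5′ to 3′ from 250 bases before to 50 bases after the start that RefSeq lists. That start is the GENCODE gene start for Ppp3cb, lies 159 bases downstream of it for Nrgn and 3676 bases downstream of it for Dlgap3, so that the Dlgap3 window lies inside the GENCODE gene. Capitals mark matches to the CREB-binding cAMP response element TGACGTCA, to its core TGACG or to the EGR site GCGGGGGCG, on either strand.
Ppp3cb, chr14:20546524-20546823, minus strand: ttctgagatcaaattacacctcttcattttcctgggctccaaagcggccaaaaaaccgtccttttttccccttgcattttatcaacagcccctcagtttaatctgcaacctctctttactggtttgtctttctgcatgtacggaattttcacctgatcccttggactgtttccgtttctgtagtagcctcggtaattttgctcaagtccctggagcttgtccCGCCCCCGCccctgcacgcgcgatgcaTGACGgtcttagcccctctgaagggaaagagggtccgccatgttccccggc
Nrgn, chr9:37552696-37552995, minus strand: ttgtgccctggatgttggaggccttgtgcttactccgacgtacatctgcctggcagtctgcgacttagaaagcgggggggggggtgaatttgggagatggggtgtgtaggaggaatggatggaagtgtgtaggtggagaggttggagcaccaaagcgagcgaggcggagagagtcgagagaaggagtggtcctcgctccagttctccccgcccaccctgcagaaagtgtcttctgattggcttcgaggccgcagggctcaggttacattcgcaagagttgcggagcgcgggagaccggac
Dlgap3, chr4:127172630-127172929, plus strand: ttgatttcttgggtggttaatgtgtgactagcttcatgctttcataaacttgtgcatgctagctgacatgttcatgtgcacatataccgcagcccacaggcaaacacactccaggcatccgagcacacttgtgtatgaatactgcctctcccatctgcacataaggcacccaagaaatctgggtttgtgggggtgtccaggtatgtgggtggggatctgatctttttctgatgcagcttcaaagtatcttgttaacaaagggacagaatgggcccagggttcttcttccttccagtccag
Ppp3cb held an EGR site on the opposite strand, which begins 28 bases before the start, and the core TGACG beginning 1 base before it, and the other 2 promoters held none of these letters. Of the 29 genes of the list with a RefSeq promoter, 0 held TGACGTCA, 8 (27.6%) held the core and 3 (10.3%) the EGR site, namely Creb1, Ppp3cb and Shank3. Among 27025 genes with a promoter, 2.03% held TGACGTCA, 23% the core, which is part of it, and 3.31% the EGR site.

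In the cAMP branch, Adcy8 was lower at 24M and Adcy1 and Creb1 passed the main edgeR test at neither age. Creb1 was called higher at 24M by DESeq2, in a joint fit of all 4 groups and with the 6 libraries of 24M kept apart. Adcy1 and Adcy8 encode the adenylyl cyclases that calmodulin activates, and CREB turns on genes for lasting memory. Adcy8 held 38.7, 36.1, 39.9, 37.1 and 31.1 CPM at 3M and 28.9, 26.7, 20.8, 24.0 and 32.7 CPM at 24M. The groups overlapped between 3M replicate 5 (31.1 CPM) and 24M replicate 6 (32.7 CPM). The log2 fold change of -0.47 (SE 0.11, adjusted p = 0.0263, edgeR) was the lowest of the 40 genes. It reached -0.55 without 24M replicate 6 and -0.53 without 3M replicate 5, where it was called by the study's thresholds, and the call was lost without 3M replicate 1 or 24M replicate 2. At 29M Adcy8 held 27.3 ± 0.754 CPM against 29.8 ± 2.8 CPM (SD, n = 3 each), -0.12 (adjusted p = 0.457). Adcy1, the more abundant cyclase, had -0.11 at 24M (adjusted p = 0.201) and -0.04 at 29M. Creb1 held 48.2, 57.5, 55.9, 63.5 and 67.9 CPM at 3M and 71.6, 75.6, 78.6, 62.1 and 67.0 CPM at 24M, a difference of 0.28 (SE 0.089, adjusted p = 0.0757). With the GC and length offsets it had 0.081 (SE 0.050, adjusted p = 0.382). At 29M it had the lowest value of the list, -0.22 (SE 0.069, adjusted p = 0.107), with 63.6, 54.3 and 52.5 CPM below 64.9, 66.0 and 67.9 CPM. Without 29M replicate 1 it was called (-0.31, adjusted p = 0.0315).

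The 24M changes of the 40 genes moved with the GC content of their transcripts. Of 12 genes with under 46% GC, 10 had positive values at 24M (median 0.16). Of 15 genes with 54% GC or more, 14 had negative values (median -0.11). Ppp3cb (39.81% GC), Lrrtm2 (38.43%), Creb1 (39.60%) and Ppp3r1 (41.41%) had values of 0.28 to 0.33. Dlgap3 (63.94%), Shank1 (61.45%), Nrgn (58.64%) and Cacng3 (54.63%) had -0.32 to -0.23. Outside this order stood Adcy8 (50.77%) with -0.47, Dlg4 (46.76%) with -0.20 and Homer3 (60.16%) with 0.10. Over the 40 genes Pearson's r was -0.68 and Spearman's rho -0.71, and over 15526 genes with a GC value -0.35 and -0.46. These are descriptions across genes, which share the same libraries. At 29M r was 0.38 over the 40 genes and 0.07 over 14954 genes.

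When offsets for GC content and transcript length were added to the fit, an alternative chosen after seeing the data, the median of the 40 genes at 24M moved from -0.060 to -0.003 and 20 of 40 values lay above 0. The lower calls of Dlg4 (-0.24, adjusted p = 0.0131), Cacng3 (-0.20, adjusted p = 0.0153), Dlgap3 (-0.16, adjusted p = 0.0183) and Adcy8 (-0.44, adjusted p = 0.0338) were kept. Those of Shank1 and Nrgn and the higher call of Ppp3cb were lost. In this fit 299 of all genes were lower and 384 higher, as against 371 and 504 without offsets. Homer1, which has the lowest GC content of the list (36.92%), went from 0.05 to -0.23 (adjusted p = 0.0158). At 29M the median moved from -0.043 to -0.047, Dlg2 kept its call (-0.15, adjusted p = 0.0217) and Dlg3 was called too (-0.13, adjusted p = 0.0489). There 136 of all genes were lower, as against 100 without offsets. GC content of a library and age were not separated in the single-end experiment by design, and the part of GC content in the 24M results was not tested beyond these offsets.

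**Figure D4:**
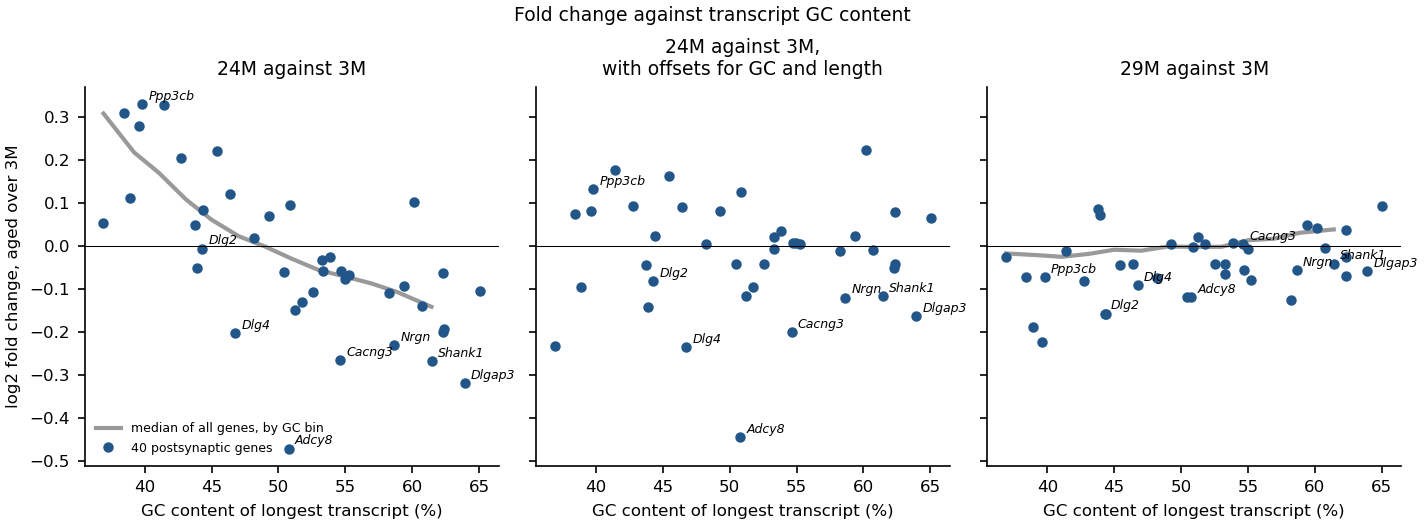
Points are the 40 genes, with GC content of the longest transcript (%) on the horizontal axis and log2 fold change on the vertical axis, at 24M without (left) and with (middle) offsets for GC content and length and at 29M (right), and grey lines give medians of all genes by GC bin. At 24M the medians of all genes ran from 0.31 in the lowest bin to -0.14 in the highest, while at 29M they ran from -0.02 to 0.04.

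Single libraries moved the number of calls at 24M. Without 3M replicate 5, 6 genes were higher (Ppp3ca, Ppp3cb, Ppp3r1, Calm2, Lrrtm2 and Creb1) and 10 lower, among them Shank3, Camk2g, Nlgn2 and Cnih2, while the share of all genes called rose too, to 8.51% higher and 6.87% lower. Without 3M replicate 1, or without 24M replicate 2, Dlgap3 and Cacng3 alone of the 40 genes were lower and none was higher. In these fits 0.962% and 0.379% of all genes were lower and 1.2% and 0.74% higher. Without 3M replicate 4, the library with high striatum and activity-induced markers, 5 genes were lower (Dlg4, Dlgap3, Shank1, Cacng3 and Adcy8) and 0 higher, where 1.21% of all genes were lower and 1.61% higher. With the 6 libraries of 24M kept apart, 8 were lower and 3 higher, where 726 of all genes were lower and 996 higher, as against 371 and 504 with replicates 1 and 4 combined. With both of these replicates left out, 3 were lower (Dlgap3, Cacng3 and Adcy8) and 0 higher, where 111 of all genes were lower and 165 higher.

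Per kilobase of exon, levels differed widely across the list. Exon length counts the exons of all transcripts of a gene, and the order rests on it. It was 13251 bases for Dlg4 and 22493 for Camk2d, whose longest transcripts have 6326 and 5524 bases. At 3M in single-end libraries Nrgn stood highest at 900 ± 61 CPM per kb, followed by Calm3 (749 ± 38.2), Camk2a (654 ± 22.8) and Calm2 (579 ± 69.9, SD, n = 5 each). The samples of Calm2 and Camk2a overlapped. The lowest were Camk2d (3.46 ± 0.411 CPM per kb), Creb1 (4.26 ± 0.548) and Adcy8 (4.49 ± 0.415), whose samples overlapped. Among scaffolds, Dlgap3 (76.4), Dlg4 (64.7), Shank1 (55.0) and Dlg3 (48.4) led, and the Homer genes held 9.20 to 10.8 CPM per kb. In the paired-end 3M libraries Calm2 (997), Calm3 (763), Nrgn (696) and Camk2a (614 CPM per kb) were highest, so the order of the most abundant genes differed between library types. Within a group, the coefficient of variation across samples had a median over the 40 genes of 7.37% at 3M and 6.78% at 24M in single-end libraries, and of 4.56% at 3M and 2.82% at 29M in paired-end libraries.

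**Figure D5:**
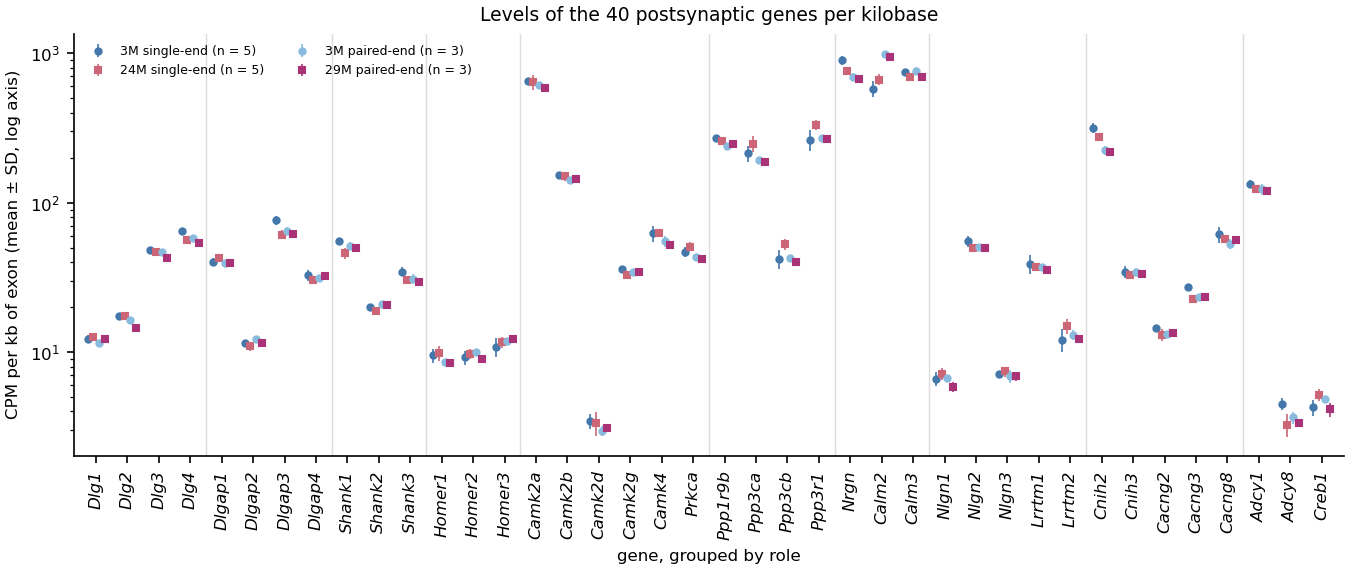
Markers give the mean CPM per kilobase of exon with SD for the 40 genes in the 4 groups, on a logarithmic vertical axis, with genes grouped by role on the horizontal axis. Nrgn, Camk2a, Calm2 and Calm3 lie above 500 CPM per kb in all groups and Camk2d, Adcy8 and Creb1 below 6.

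Whether the 29M change differed from the 24M change was tested as an interaction over 16055 genes, and 0 genes passed an adjusted p of 0.05, 0% in either direction and 0 of the 40. DESeq2 also called 0 of the 40. At an unadjusted p under 0.05, 14 of the 40 genes (35%) and 10.4% of all genes passed. Of these 14, 9 had a 29M change below the 24M change, with Creb1 lowest (-0.50, SE 0.14, adjusted p = 0.392 by edgeR). The other 5 had a 29M change above it, led by Adcy8 (0.35), Cacng3 (0.27, adjusted p = 0.392 by edgeR) and Dlgap3 (0.26). Without 3M single-end replicate 5, 2 of the 40 genes passed, the smallest adjusted p being 0.0429 (Ppp3cb), and 92 of 15961 genes in all (0.576%). Of the 14 genes above, the 9 had 38.43% to 45.44% GC and the other 5 had 50.77% to 63.94%. GC content also differed between the single-end libraries, and its part in these differences was not tested. The 2 experiments also differ in library type, so age and library type cannot be told apart in this comparison.

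A wider list of 115 other postsynaptic and plasticity genes had 9 lower and 2 higher at 24M, and 3 lower and 2 higher at 29M, at an adjusted p of 0.05, where 2.37% and 3.21% of all genes were lower and higher at 24M and 0.662% and 2.32% at 29M. Without 3M replicate 4, 2 were lower (Cit and Ephb2) and 0 higher at 24M. Its median was -0.043 at 24M and -0.037 at 29M, close to those of the 40 genes. By the study's thresholds, Lin7c, a partner of MAGUK scaffolds, was higher at 24M (0.52, SE 0.12, adjusted p = 0.0272), with 82.0, 108.8, 95.2, 106.0 and 135.6 CPM at 3M and 155.4, 166.1, 170.9, 128.0 and 134.1 CPM at 24M. 3M replicate 5 again lay among the 24M samples. The call of Lin7c by these thresholds was lost without 3M replicate 1, 3 or 4, or without 24M replicate 1, 2 or 3. Arc, the activity-induced gene that regulates AMPA receptor uptake, was lower at 24M (-1.27, SE 0.34, adjusted p = 0.0487), from 64.0, 68.6, 141.7, 311.9 and 155.1 CPM to 58.3, 66.5, 59.1, 70.6 and 52.8 CPM. The highest value was in 3M replicate 4, and without that library no gene of the wider list was lower by these thresholds. This held for 7 of the 11 fits that each left out 1 library. At 29M Lin7c had -0.08 (adjusted p = 0.437) and Arc 0.03 (adjusted p = 0.966).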

How the data were processed

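Hippocampal polyA RNA was sequenced by the submitters in single-end (3M, 24M) and paired-end (3M, 29M) libraries. Per the study's methods and the submitters' processing notes, reads were aligned to GRCm38.p2 with STAR 2.3.0, counted per Ensembl gene with HTSeq and tested with DESeq2. The overlap mode is the 1 HTSeq setting named as changed (intersection, non-empty), so that the strand option is not named, and the kit does not mark strand. The sources used here do not name the annotation used for counting. The authors deposited raw counts per gene and library, with reads mapped to several places left uncounted. Rows that name no gene were left out, which held 8.59% to 15.87% (no feature), 10.79% to 26.62% (not unique) and 1.01% to 1.42% (ambiguous) per library.

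From these counts, edgeR 4.0.16 in R 4.3.3 (TMM scaling, low-count filter by filterByExpr, quasi-likelihood F test, Benjamini-Hochberg adjustment over all genes tested) was fitted to each experiment by itself, and to all 16 samples for the difference between ages. SE was the log2 fold change over the square root of F. Calls required an adjusted p up to 0.05, with or without a log2 fold change of 0.5 or more in size. 24M replicates 1 and 4 entered as their rounded mean. The scripts were tested on simulated data. DESeq2 1.42.0, other scalings and filters, a joint fit, a replicate block and fits that each left out 1 library were alternatives, and per-gene offsets fitted by loess (span 0.3) to GC content and length were added after seeing the data. Precision is limited by depth and by 3 to 5 samples a group.

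The 40 genes, the wider list and the marker lists were chosen with earlier results of these data known. Full values are given for genes at an adjusted p of at most 0.05, for the largest absolute log2 fold change of each role and age, and for Camk2a, Dlg4 and Nrgn. Gene positions and GC content come from GENCODE vM21 (GRCm38) and promoters from RefSeq (GRCm38.p6). No protein sequences were used here, and a few results of the marker lists and promoters are not reported here.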

Additional observations from a re-analysis of the deposited data

Results flagged for a closer look

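In 136 groups of 5 samples, covering the 40 genes and the sums over lists, 10 held a sample whose gap to its nearest neighbour was a large part of the range of its group, by Dixon's ratio. Chance flags about 1 in 20 groups, or 6.8 here. At 3M in single-end libraries, Dlg3 was high in replicate 3, at 295.8 CPM against 278.0 to 281.0 CPM in the others (ratio 0.831). Dlgap2 was low in replicate 4, at 64.96 CPM against 71.34 to 73.27 CPM (0.768), and Calm2 was high in replicate 5, at 1027 CPM against 764.2 to 828.7 CPM (0.755). Replicate 4 was also high in summed striatum markers, at 739.2 CPM against 237.0 to 305.0 CPM (0.865), and in summed CA2 and CA3 markers, at 379.5 CPM against 336.5 to 342.0 CPM (0.872).

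At 24M, replicate 3 was high in Prkca, at 513.3 CPM against 435.3 to 449.2 CPM (0.822), and in the sum over the cAMP and CREB genes, at 1778 CPM against 1576 to 1634 CPM (0.713). Replicate 6 was low in the sum over adhesion genes, at 630.3 CPM against 657.3 to 667.6 CPM (0.724), and high in summed hypothalamus and thalamus markers, at 160.1 CPM against 100.6 to 111.2 CPM (0.822). Replicate 2 was high in summed blood markers, at 544.4 CPM against 76.33 to 159.5 CPM (0.822). The part of these libraries in the age comparisons was not tested beyond leaving each out.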

How the results depend on the processing

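At 24M, where 1 of the 40 genes was higher and 6 lower, 3 were higher with DESeq2, 2 with no filter on low counts, 4 in a joint fit of all 4 groups, 3 with the 6 libraries of 24M kept apart, and 0 with GC and length offsets or with 24M replicates 1 and 4 left out. The lower genes numbered 9, 7, 9, 8 and 5 under the first 5 of these settings. With those 2 replicates left out 3 were lower, and 1 of them (Adcy8) passed the fold threshold. DESeq2 added Ppp3r1 and Creb1 to the higher genes and Shank3, Camk2g and Cnih2 to the lower ones. The joint fit added the same genes and Lrrtm2, which was higher. Fits that each left out 1 library gave 0 to 6 higher, 2 to 10 lower and 0 to 1 lower past the fold threshold. At 29M, where 1 gene was lower, 5 were lower with no filter, 0 in the joint fit, 2 with the offsets and 0 to 1 when 1 library was left out (Dlg2 without 3M replicate 2, Creb1 without 29M replicate 1). The difference between ages gave 0 to 2 genes when 1 library was left out, the 2 being without 3M single-end replicate 5. The causes were not tested.

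Nothing in the labels says that replicate numbers pair the samples. Samples with the same number correlated at -0.25 to 0.05 (24M, 5 pairs) and -0.13 to 0.13 (29M, 3 pairs). Those with different numbers correlated at -0.31 to 0.25 and -0.22 to 0.27. So few pairs cannot tell whether a number marks a shared batch or day, which was not tested. With the number as a replicate block, 0 genes of the list were higher and 0 lower at 24M, with or without the offsets. Of all genes tested, 63 were higher and 27 lower at 24M with the block, and 126 and 70 with offsets and block. At 29M, Dlg2 was called with the block, with or without the offsets.

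Among the genes not given in full, offsets turned the 24M sign of Dlg1, Dlgap4, Shank2, Homer1, Camk2b, Ppp1r9b and Lrrtm1 and the 29M sign of Camk2b and Ppp1r9b. For those given in full the values were as follows. With offsets, and with offsets and block, 24M values were 0.004 and 0.014 for Dlgap2, -0.097 and -0.083 for Nlgn1, 0.065 and 0.022 for Cacng8, and 0.020 and 0.045 for Camk2a. At 29M they were -0.015 and -0.016 for Cacng3 (-0.001 in the joint fit) and -0.009 and -0.009 for Camk2g. When 1 library was left out, 24M values ran from -0.041 to 0.012 for Dlg2, -0.040 to 0.066 for Camk4 and -0.106 to 0.007 for Camk2a. At 29M they ran from -0.069 to 0.011 for Shank1, -0.026 to 0.042 for Cacng3 and -0.015 to 0.022 for Camk2g.

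Over all genes at 24M, 504 were higher and 371 lower at an adjusted p of 0.05, as against 926 and 639 with DESeq2, 617 and 425 with no filter, 384 and 299 with offsets, 1289 and 971 in the joint fit, 996 and 726 with the libraries kept apart, 165 and 111 with 24M replicates 1 and 4 left out, 63 and 27 with the block, and 126 and 70 with offsets and block. Leaving out 1 library gave 117 to 1345 higher and 60 to 1086 lower, with the lowest without 24M replicate 2 and the highest without 3M replicate 5. At 29M, 351 were higher and 100 lower, as against 224 and 79 with DESeq2, 753 and 335 with no filter, 361 and 136 with offsets and 96 and 6 in the joint fit. Leaving out 1 library gave 170 to 304 higher and 28 to 104 lower, with the lowest without 29M replicate 1.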

Other observations

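Of 8 microglia markers, 5 were higher at 24M and 6 at 29M at an adjusted p of 0.05 (edgeR), among them Ctss, a lysosomal protease (0.90 and 0.82), and C1qa, a subunit of complement C1q (0.55 and 0.69). Their summed level was 425.8 ± 26.2 CPM at 3M and 560 ± 23.3 CPM at 24M (SD, n = 5 each), and 387.3 ± 6.91 CPM at 3M and 531.7 ± 6.67 CPM at 29M (SD, n = 3 each). Of 8 astrocyte markers, 3 were higher at 24M and 2 at 29M, with Gfap, the intermediate filament of astrocytes, at 0.66 and 0.80. Of 7 oligodendrocyte markers, led by Mbp, 0 passed at either age.

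Among 13 activity-induced genes, 7 were lower at 24M and 0 passed at 29M, with Egr1, a transcription factor induced by synaptic activity, at -0.94 (adjusted p = 0.0272). Without 3M replicate 4, the library with the highest levels of these genes, 3 were lower (Egr1, Egr3 and Egr4), and without 24M replicate 2 or 24M replicate 6 only 1 was, over a range of 1 to 11 in fits that each left out 1 library. Of 8 genes listed as neocortex markers, 3 were lower at 24M, namely Stx1a (-0.50), Cux2 (-0.53) and Lamp5 (-0.65), and 0 at 29M. Stx1a, the most abundant of the 8, is not particular to neocortex. Without 3M replicate 4, Lamp5 and Stx1a were lower, and the range was 1 to 4 genes. Of 11 striatum markers, 0 passed at 24M.

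Among the CA1 markers, Wfs1 was lower at 29M (-0.28, adjusted p = 0.0124). Of 8 CA2 and CA3 markers, led by Rgs14, Amigo2 was higher at 24M (0.39, adjusted p = 0.035) and Pcp4 lower at 29M (-0.40, adjusted p = 0.0270). Of 9 interneuron markers, led by Gad1, Slc32a1 and Cck were lower at 24M and 0 passed at 29M. Without 3M replicate 4, 0 interneuron and 0 CA2 and CA3 markers passed at 24M. Dentate granule cell markers (7), choroid plexus markers (7, led by Ttr), markers of hypothalamus and thalamus (11, led by Rora, of which 6 were tested) and sex-linked genes (5) gave 0 calls at either age. Of 7 endothelial and pericyte markers, Cldn5 was lower (-0.60) and Rgs5 higher (0.40) at 24M, and of 5 blood markers, led by Hbb-bs, Hba-a1 (0.95) and Alas2 (0.85) were higher at 29M.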
